A study of Mus musculus with 5 samples.

Results

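The complement system was examined in mouse melanomas through 9 genes that stand for its main roles: the C1q chains C1qa, C1qb and C1qc, the components C3, C4b and Cfb, the anaphylatoxin receptors C3ar1 and C5ar1, and the inhibitor Serping1. The genes were chosen by name, with earlier results of these data known, and the probe with the highest mean was taken for each. Of the 9 genes, 8 had a named probe, each a single one, among 19505 named genes on 22203 probes. C3 lacks a named probe and was not analysed here. Tumours were grown under the skin of wildtype C57BL/6 mice aged 10 weeks from B16.F10 melanoma cells, a mouse line labelled as luc+GFP+. Anti-PD-1, which releases T cells from an inhibitory checkpoint, was injected intraperitoneally into all 5 mice on days 1, 4 and 8. In addition 3 of them were given RG7112, an MDM2 inhibitor that frees p53 from MDM2, and 2 were given its vehicle, corn oil with 5% DMSO. Both were given by mouth every 2 days for 6 days, and tumours were taken on day 13. No group went without anti-PD-1, so the comparison is of RG7112 with vehicle on top of that antibody. All tumours came from 1 cell line, with the cells of the host mouse among them.

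Complement is a cascade of plasma and cell-surface proteins that marks targets for uptake and attracts leukocytes. C1q, built from 3 kinds of chain, binds immune complexes and dying cells. It starts the classical pathway through the proteases C1r and C1s, after which C4 and C2 are cleaved. The alternative pathway uses factor B, and both pathways meet at C3, from which small fragments are released that act on receptors of myeloid cells. The liver makes most plasma complement, but C1q is largely a product of macrophages and immature dendritic cells, and in tumours macrophages are a known source of it. Several components, among them C4, factor B, C2 and the C1 inhibitor, are known to be induced by interferon gamma.

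Each tumour gave 1 Affymetrix Clariom S array, and all signals below are log2 values on which 1 unit is a doubling. The 5 arrays had medians from 5.76 to 5.81. With limma, 315 probes passed an adjusted p of 0.05 in the direction of RG7112 and 7 in that of vehicle. The labels describe tumours as mixtures of melanoma and infiltrating immune cells. All 7 melanocyte genes examined were bright, with list means of 11.9 to 12.0 in every tumour, and differed by a median of 0.07. In such mixtures, fewer cells of a type and less RNA per cell cannot be told apart.

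The 3 C1q chains and the C3a receptor were higher in RG7112 tumours, while C4b, Cfb, C5ar1 and Serping1 did not pass the test. The rises were 2.74-fold for C1qb, 2.88-fold for C1qc, 2.49-fold for C1qa and 2.42-fold for C3ar1. In limma, 4 of the 8 measured genes were called higher and 0 lower, against 1.42% of all probes called higher and 0.0315% called lower. At an unadjusted p under 0.05, 7 were higher and 0 lower, against 4.83% and 4.06% of all probes. In all 8 genes every RG7112 tumour lay above both vehicle tumours, a separation that 10.8% of all probes showed upwards and 14% downwards. The median log2 difference of the 8 genes was 1.01, and that of all probes was -0.03. As the genes were chosen with earlier results of these data known, these counts describe them and do not test the list.

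**Figure D1:**
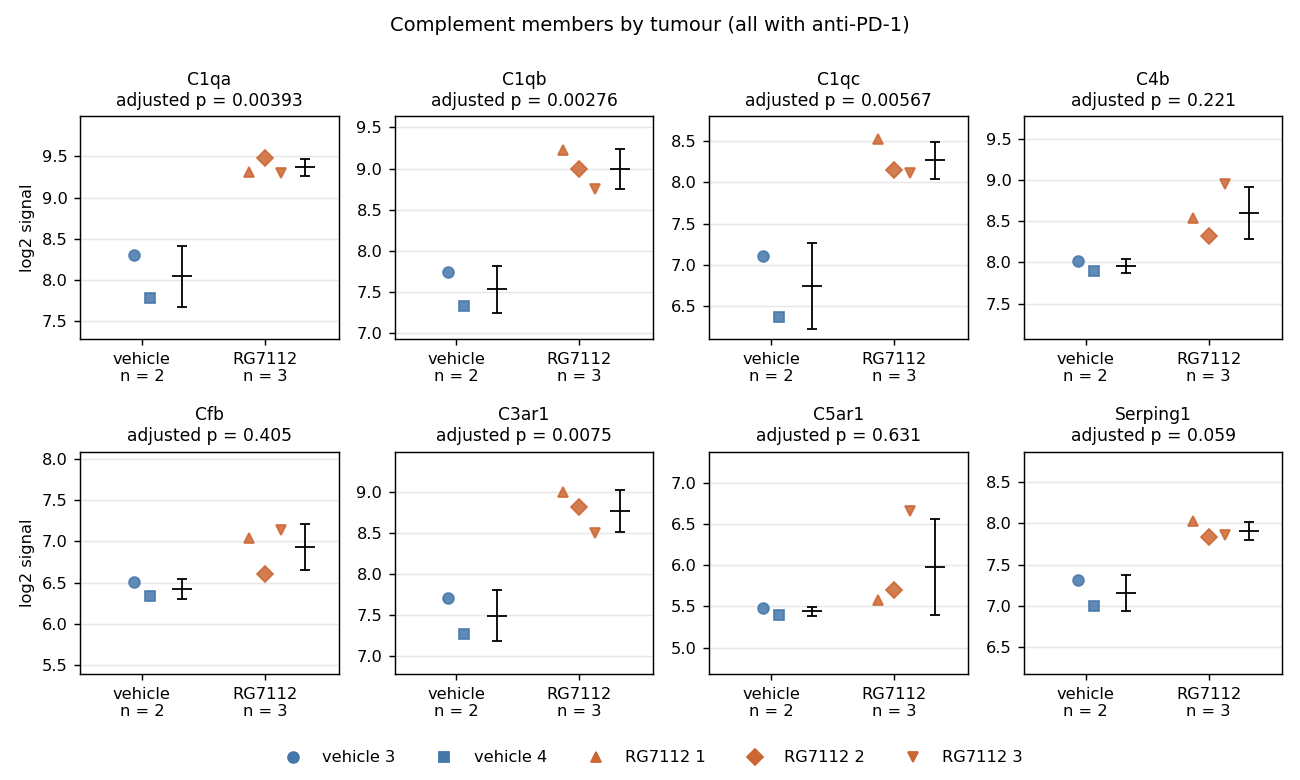
Log2 signal (vertical axis, 2.7 units in every panel) of each measured complement gene in 2 vehicle and 3 RG7112 tumours, all given anti-PD-1. Each symbol is 1 tumour, the black marks are means with SD, and panel titles give the limma adjusted p over all probes. The groups are apart by about 1 unit in the C1q chains and by 0.10 units in Cfb and C5ar1, where RG7112 replicate 3 stands above the other tumours in C5ar1.

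C1qa encodes the A chain of C1q. Its signal was 8.31 and 7.79 in vehicle replicates 3 and 4, and 9.31, 9.49 and 9.30 in RG7112 replicates 1, 2 and 3. The RG7112 tumours lay closer to one another than the vehicle tumours did, and the groups were 0.99 units apart. The mean rose from 8.05 ± 0.37 (SD, n = 2) to 9.37 ± 0.10 (SD, n = 3), that is by 1.32 ± 0.19 (SE) with an adjusted p of 0.00393 in limma.

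C1qb, the B chain, was at 7.74 and 7.34 with vehicle and at 9.23, 9.00 and 8.75 with RG7112. Vehicle replicate 4 was again the lowest tumour, and the groups were separated by 1.01 units. The mean rose from 7.54 ± 0.29 (SD, n = 2) to 8.99 ± 0.24 (SD, n = 3), that is by 1.45 ± 0.19 (SE) with an adjusted p of 0.00276 in limma. The C chain, C1qc, was at 7.11 and 6.37 with vehicle and at 8.53, 8.16 and 8.11 with RG7112. It had the widest spread of the 3 chains between vehicle tumours. Its mean rose from 6.74 ± 0.52 (SD, n = 2) to 8.27 ± 0.23 (SD, n = 3), that is by 1.53 ± 0.23 (SE) with an adjusted p of 0.00567 in limma.

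The calls of all 3 chains were lost without vehicle replicate 4, the tumour with the lowest C1q signals. Fewer of all probes were called as well on leaving out that tumour. Without it C1qa differed by 1.06 (limma adjusted p = 0.114), C1qb by 1.25 (adjusted p = 0.104) and C1qc by 1.16 (adjusted p = 0.125). In that fit vehicle replicate 3 stands alone and is assumed to vary like the RG7112 tumours. Leaving out any other tumour kept the 3 calls, and over all refits the adjusted p of the chains ran from 0.000249 to 0.125.

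The 3 chains lie side by side on mouse chromosome 4, with C1qc between C1qb and C1qa and no other protein-coding gene among them. Next to C1qa lies Epha8, an ephrin receptor, which was dim and differed by -0.30 ± 0.18 (SE; limma adjusted p = 0.697). Promoter windows from RefSeq, 250 bases before to 50 after the start, were present for 4 of the 8 genes: C1qb, C1qc, C3ar1 and C5ar1. The bases before the start are shown for the 3 of these genes that rose, on build GRCm38.p6, each 5′ to 3′ on the gene's own strand, which is the minus strand in every case. They lie at chr4:136886201-136886450 for C1qb, at chr4:136892915-136893164 for C1qc and at chr6:122856158-122856407 for C3ar1. Capitals mark motif matches.
C1qb: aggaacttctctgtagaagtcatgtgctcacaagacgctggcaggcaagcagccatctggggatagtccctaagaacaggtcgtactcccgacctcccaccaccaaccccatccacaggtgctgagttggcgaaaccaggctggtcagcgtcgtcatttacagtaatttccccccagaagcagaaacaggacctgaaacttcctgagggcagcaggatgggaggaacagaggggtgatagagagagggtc
C1qc: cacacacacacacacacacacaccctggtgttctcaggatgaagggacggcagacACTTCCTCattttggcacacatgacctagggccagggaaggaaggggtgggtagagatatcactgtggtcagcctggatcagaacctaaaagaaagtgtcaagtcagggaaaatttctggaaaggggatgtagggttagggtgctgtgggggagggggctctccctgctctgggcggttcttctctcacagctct
C3ar1: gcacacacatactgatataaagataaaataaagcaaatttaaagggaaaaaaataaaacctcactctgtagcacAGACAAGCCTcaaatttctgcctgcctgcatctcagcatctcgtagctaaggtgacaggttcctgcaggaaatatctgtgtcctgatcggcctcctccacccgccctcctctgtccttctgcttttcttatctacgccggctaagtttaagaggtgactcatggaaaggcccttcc

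Both strands of each window were searched for 4 motifs. These were the interferon gamma element GAS (TTCNNNGAA), the interferon element ISRE, an ETS site as bound by the myeloid factor PU.1 (GAGGAAGT) and the p53 half-site. The C1qc window held 1 ETS match, on the opposite strand, at position -195 from the start. In C3ar1, 1 p53 half-site was found at position -176, and the C1qb and C5ar1 windows held none of the 4 motifs. Among all 32851 windows, 8.3% held a GAS, 3.44% an ISRE, 3.2% the ETS site and 8.36% a p53 half-site. No GAS or ISRE match lay in the windows of these 4 genes, which says only that those letters are absent from these windows. Of the other called complement genes, C1ra, Itgam and Itgax have a window; that of C1ra held 1 GAS match, at position 33 after the start, and the others held none of the motifs.

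C1q acts with the proteases C1r and C1s, each of which has a pair of gene copies in the mouse. C1ra, a C1r gene, was at 6.72 and 6.61 with vehicle and at 7.82, 7.46 and 7.98 with RG7112, and all RG7112 tumours were higher. It rose by 1.09 ± 0.18 (SE; limma adjusted p = 0.0118). The difference was 1.14 without vehicle replicate 3 and 1.04 without vehicle replicate 4. The call was lost in both fits, each of which has 1 vehicle tumour. C1s1, a C1s gene, differed by 0.77 ± 0.17 and lay just outside the threshold (limma adjusted p = 0.0520). C1rb differed by 0.76 ± 0.18 (adjusted p = 0.0825), while C1s2, the other C1s copy, differed by -0.07 ± 0.19 (adjusted p = 0.961). The copies are alike in sequence, so signal may be shared between their probes. C1rl, a C1r-like gene listed with this group, differed by 0.35 ± 0.20 (limma adjusted p = 0.695). Of the 8 measured genes listed under the C1 complex, 4 rose, 0 fell and 4 did not pass, against 1.42% of all probes called higher.

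Downstream of C1, C4 and C2 form the C3 convertase of the classical pathway. C4b, the mouse gene for functional C4, was at 8.02 and 7.89 with vehicle and at 8.54, 8.32 and 8.95 with RG7112. RG7112 replicate 3 was the highest tumour, and the groups were separated by 0.30. The mean was 7.96 ± 0.09 (SD, n = 2) against 8.60 ± 0.32 (SD, n = 3). The difference of 0.65 ± 0.20 (SE; 95% interval 0.22 to 1.08) did not pass over all probes (limma adjusted p = 0.221).

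C4a, a close copy of C4b, differed by 0.61 ± 0.26 (limma adjusted p = 0.521), and as the copies are alike, signal may be shared between their probes, which was not tested. C2, the protease that pairs with C4, was at 8.04 and 8.19 with vehicle and at 8.93, 8.79 and 8.97 with RG7112. It rose by 0.78 ± 0.16 (SE; limma adjusted p = 0.0336). Removing any 1 of the 5 tumours ended this call, with differences from 0.71 to 0.86 and adjusted p from 0.0638 without RG7112 replicate 2 to 0.425 without vehicle replicate 3.

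In the alternative pathway, Cfb encodes factor B, the protease of the second C3 convertase. Its signal was 6.51 and 6.34 with vehicle and 7.04, 6.61 and 7.14 with RG7112. RG7112 replicate 2 lay only 0.10 above the higher vehicle tumour. The mean was 6.42 ± 0.12 (SD, n = 2) against 6.93 ± 0.28 (SD, n = 3), and the difference of 0.51 ± 0.19 (SE; 95% interval 0.09 to 0.92) did not pass (limma adjusted p = 0.405). Cfp, which encodes properdin, the stabiliser of that convertase and a product of myeloid cells, differed by 0.73 ± 0.17 (limma adjusted p = 0.0818). Cfb and C2 are neighbours on chromosome 17, and Nelfe, a subunit gene of the negative elongation factor on the other side of Cfb, differed by 0.04 ± 0.16 (limma adjusted p = 0.980).

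Serping1 encodes the C1 inhibitor, which inactivates C1r and C1s. It was at 7.313 and 7.003 with vehicle and at 8.03, 7.84 and 7.85 with RG7112. All RG7112 tumours were at least 0.52 above the vehicle tumours. The mean was 7.16 ± 0.22 (SD, n = 2) against 7.91 ± 0.11 (SD, n = 3). The difference of 0.75 ± 0.17 (SE; 95% interval 0.38 to 1.12) was outside the threshold (limma adjusted p = 0.0590). It was inside it with array weights or an intensity trend, where the lowest adjusted p was 0.0431, and its adjusted p reached 0.540 without vehicle replicate 4. Its neighbour Ube2l6, a conjugating enzyme for the ubiquitin-like protein ISG15, rose by 1.24 ± 0.21 (limma adjusted p = 0.0128), while Ypel4 on the other side differed by -0.27 ± 0.16 (limma adjusted p = 0.719).

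C3ar1 and C5ar1 encode the receptors for the fragments C3a and C5a. C3ar1 was at 7.71 and 7.27 with vehicle and at 8.99, 8.81 and 8.50 with RG7112. As in the C1q chains, vehicle replicate 4 was the lowest tumour, and the groups were 0.78 units apart. The mean rose from 7.49 ± 0.31 (SD, n = 2) to 8.77 ± 0.25 (SD, n = 3), that is by 1.27 ± 0.20 (SE) with an adjusted p of 0.00750 in limma. The call was lost without vehicle replicate 4 (1.05, adjusted p = 0.191) and kept without any other tumour, with adjusted p from 0.00120 to 0.191 over all refits. Its neighbour Necap1, an endocytosis adaptor, differed by 0.35 ± 0.19 (limma adjusted p = 0.677).

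C5ar1 was at 5.48 and 5.40 with vehicle and at 5.58, 5.70 and 6.65 with RG7112. Only RG7112 replicate 3 was far from the vehicle tumours. The mean was 5.44 ± 0.06 (SD, n = 2) against 5.98 ± 0.59 (SD, n = 3), and the difference of 0.54 ± 0.27 (SE; 95% interval -0.06 to 1.14) did not pass (limma adjusted p = 0.631). Without RG7112 replicate 3 it was 0.20 (adjusted p = 0.698, within a range of 0.454 to 1.00 over all refits). The change of C3ar1 exceeded that of C5ar1 by 0.73 ± 0.63 (SE, n = 5; two-sided exact permutation p = 0.4, adjusted p = 0.56 over 28 gene pairs), and the within-tumour differences overlapped between groups. C5ar2, the second C5a receptor and the neighbour of C5ar1, was dim and differed by 0.07 ± 0.20 (limma adjusted p = 0.966).

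The mean signal of fat cell markers was also highest in RG7112 replicate 3. The mean of 6 adipocyte genes was 4.46 and 4.58 in the vehicle tumours and 4.59, 5.04 and 5.69 in RG7112 replicates 1, 2 and 3. Adipoq, the fat cell hormone adiponectin, was at 3.89 and 3.62 with vehicle and at 3.57, 5.03 and 5.95 with RG7112. Retn and Cidec, a hormone and a lipid droplet protein of fat cells, were also highest in RG7112 replicate 3, at 6.62 and 6.39. Plin1, Lep and Pparg were not, with 4.70, 4.01 and 6.45 in that tumour against highest values of 4.78 in vehicle replicate 4, 4.32 in RG7112 replicate 2 and 6.64 in RG7112 replicate 1. Of these 6 genes only Pparg, a nuclear receptor of fat cells that macrophages also express, was called (1.78 ± 0.16, limma adjusted p = 0.000369). Of all probes, limma called 1.42% higher. At an unadjusted limma p under 0.05, 2 of the 6 were higher, against 4.83% of all probes. The part of fat tissue in the C5ar1 or C4b signal of RG7112 replicate 3 was not tested.

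Other complement receptors were higher too. Itgam and Itgax encode the alpha chains of CR3 and CR4, integrins of myeloid cells that bind cleaved C3, and Itgb2 is their shared beta chain. Itgam rose by 1.57 ± 0.25 (SE; limma adjusted p = 0.00861), from 7.45 and 6.52 to 8.67, 8.70 and 8.31. Its call was lost without vehicle replicate 4, where the difference was 1.11. Itgb2 rose by 1.10 ± 0.15 (limma adjusted p = 0.00352), from 6.41 and 6.38 to 7.42, 7.51 and 7.53. Its difference hardly moved on leaving out a vehicle tumour, to 1.11 without vehicle replicate 3 and 1.08 without vehicle replicate 4, while the adjusted p passed the threshold in neither fit (0.0591 and 0.0971).

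Itgax rose by 0.98 ± 0.20 (limma adjusted p = 0.0376). It missed the threshold on leaving out vehicle replicate 3 (adjusted p = 0.434), vehicle replicate 4 (0.285), RG7112 replicate 1 (0.0923) or RG7112 replicate 2 (0.109). Cd93, a lectin-like surface protein of myeloid and endothelial cells once described as a C1q receptor, rose by 1.33 ± 0.21 (limma adjusted p = 0.00783). Its call was lost without vehicle replicate 3, where the difference was 1.01. By contrast Vsig4, a C3b receptor of tissue macrophages, differed by 0.25 ± 0.21 (limma adjusted p = 0.822), and Cr2, the complement receptor of B cells, by -0.14 ± 0.16 (adjusted p = 0.879). Of 9 receptor genes, 5 rose, 0 fell and 4 did not pass, against 1.42% of all probes called higher.

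The lectin and terminal pathways were mostly dim in these tumours and gave no call. Of 8 lectin pathway genes, 7 terminal pathway genes and 8 soluble inhibitors, 0 were called by limma in either direction. At an unadjusted p under 0.05, 0 were higher and 1 was lower in the lectin group, 0 and 0 in the terminal group, and 1 (Serping1) and 0 among soluble inhibitors. Of all probes, 4.83% were higher and 4.06% lower at that threshold. Colec11, a collectin that recognises sugars, differed by -0.60 ± 0.25 (limma adjusted p = 0.494), and the ficolin Fcnb by 0.24 ± 0.17 (adjusted p = 0.767). Among genes of the membrane attack complex, C8a differed by 0.33 ± 0.17 (limma adjusted p = 0.645) and C8g by -0.27 ± 0.21 (adjusted p = 0.805). The signal lay under the median of all probes in 7 of 8 lectin and 6 of 7 terminal genes.

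Soluble inhibitors other than Serping1 included clusterin, Clu, with 0.33 ± 0.18 (limma adjusted p = 0.687), and C4bp, with -0.17 ± 0.17 (adjusted p = 0.873). Inhibitors on cell membranes protect host cells from complement. Of 6, 0 were called and 1 was higher at an unadjusted p under 0.05, against 4.83% of all probes. That gene was Cd55, decay-accelerating factor, at 2.991 and 3.001 with vehicle and at 3.92, 3.55 and 3.73 with RG7112. It differed by 0.74 ± 0.17 (limma adjusted p = 0.0655) from a signal among the dimmest on the array. Cr1l, known as Crry, the widespread rodent regulator of C3 convertases, was bright at 9.27 ± 0.13 (SD, n = 2) with vehicle and differed by 0.18 ± 0.19 (limma adjusted p = 0.875).

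Over the whole system, 55 genes were listed and 51 measured, and the others were not analysed here. Of the 51, 10 rose, 0 fell and 41 did not pass, with a median difference of 0.18. Among all probes, limma called 1.42% higher and 0.0315% lower. Apart from the 8 genes above, 6 of 43 rose, with a median of 0.08. Leaving out vehicle replicate 3 or 4 leaves 1 vehicle tumour, and fewer of the 51 were then called, as were fewer of all probes. The median difference of the 8 genes above was 1.20 without vehicle replicate 3 and 0.82 without vehicle replicate 4.

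**Figure D2:**
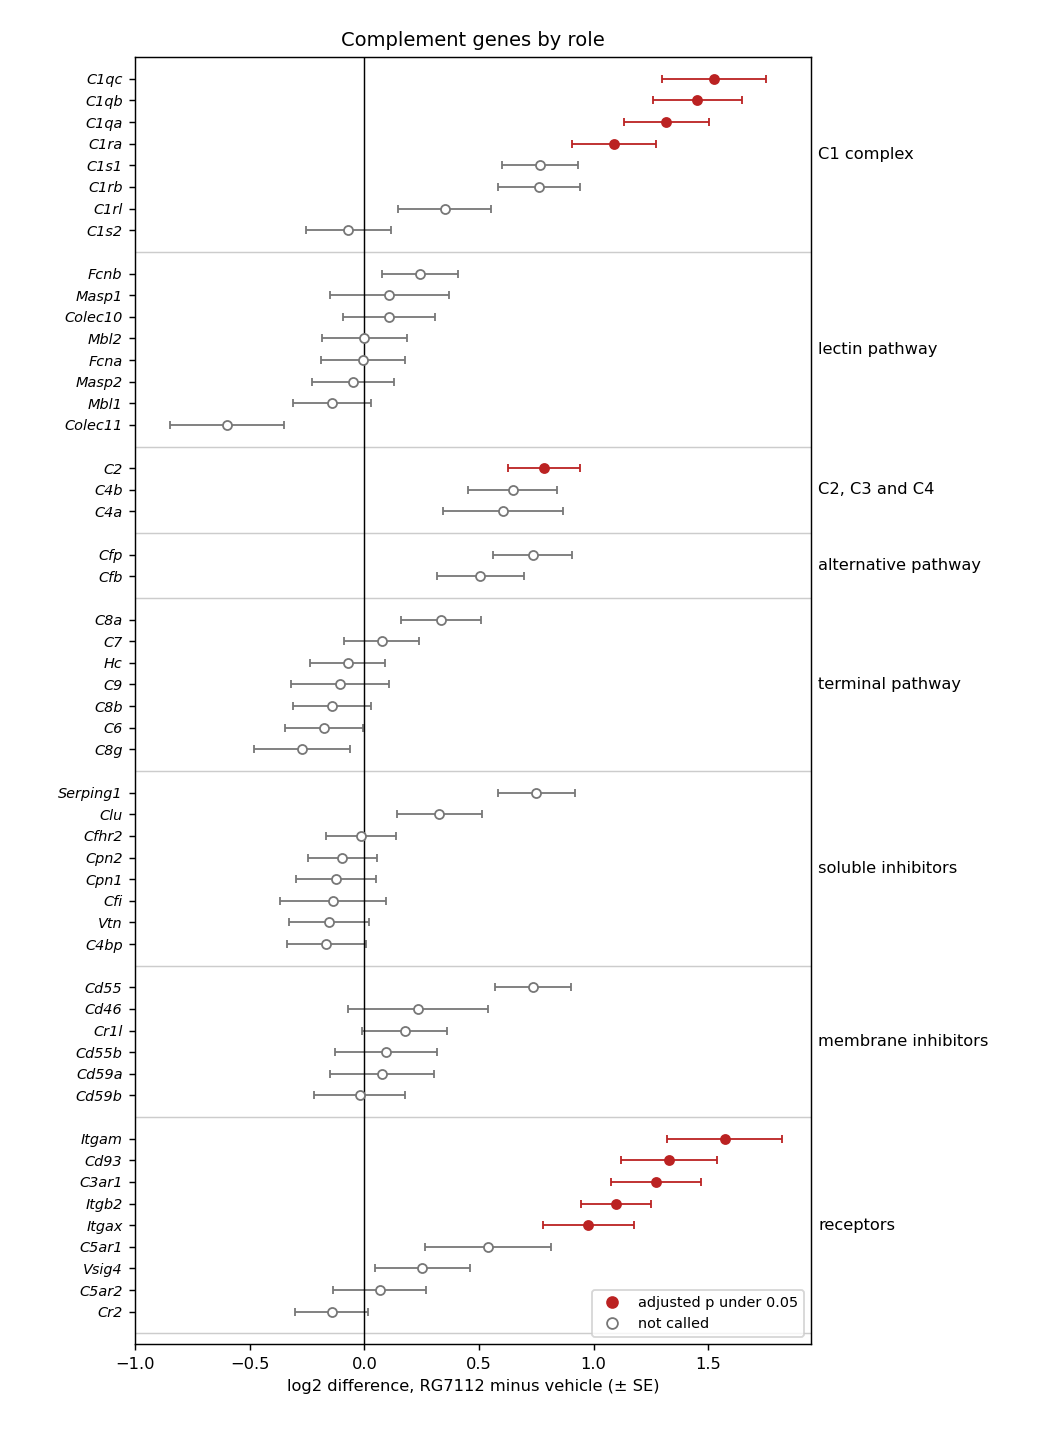
Log2 difference between RG7112 and vehicle tumours (horizontal axis, with SE from limma) for 51 complement genes, grouped by role. Filled red points passed an adjusted p under 0.05; these are 4 genes of the C1 complex, C2 and 5 receptors, and the lectin, terminal and inhibitor groups hold open points only.

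The changes of the 8 genes were compared in 28 pairs within tumours, by a two-sided exact permutation test over the 10 ways to split 5 tumours, which cannot give a p below 0.1. No pair could therefore pass, and the test does not show whether the genes differ in their change. The smallest p was reached by 6 pairs, with an adjusted p of 0.467. The rise of C1qb exceeded that of Serping1 by 0.70 ± 0.13 (SE, n = 5; exact permutation p = 0.1), that of C1qa by 0.57 ± 0.16 and that of C1qc by 0.78 ± 0.18. C1qc exceeded Cfb by 1.02 ± 0.31 and C1qa exceeded Cfb by 0.81 ± 0.32, and C1qb exceeded C3ar1 by 0.18 ± 0.03, all at the same p. Among the chains themselves, the change of C1qa was 0.14 ± 0.19 smaller than that of C1qb and 0.21 ± 0.22 smaller than that of C1qc, and that of C1qb was 0.07 ± 0.15 smaller than that of C1qc, with p from 0.5 to 0.8 in this exact test. Those differences were within their errors.

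**Figure D3:**
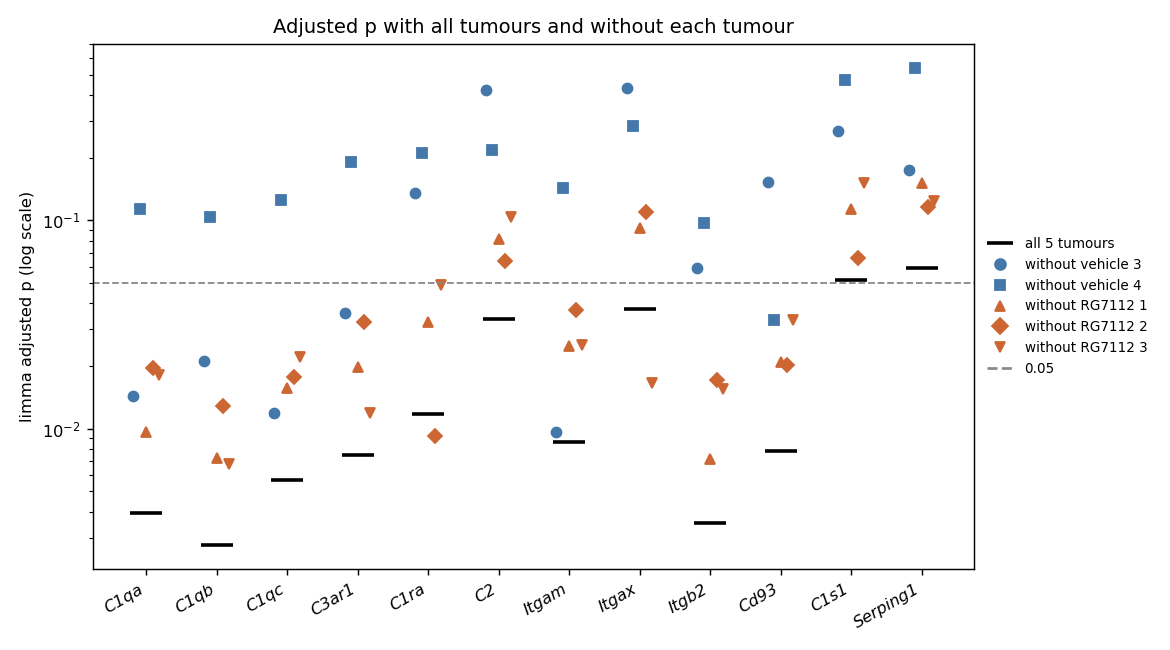
Limma adjusted p (log scale) of the 10 complement genes called and of C1s1 and Serping1, with all 5 tumours (black bar) and without each tumour (symbols). The dashed line is 0.05; the C1q chains and C3ar1 cross it only without vehicle replicate 4, and C2 crosses it without any 1 tumour.

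Genes with the most similar course over the 5 tumours were found by the root mean square difference of centred log2 signals, among 9782 named genes at or above the median signal. This is a description over 5 tumours. Nearest to C3ar1 were Tmem106a (0.04), Dock2 (0.06) and Ube2l6 (0.06), and nearest to C1qb were Tmem106a (0.08), C3ar1 itself (0.09) and Gbp2 (0.10). C1qc was nearest to Nr1h3 (0.07), Cd53 (0.07) and Gbp2 (0.09), and C1qa to Tgtp2 (0.10), Nckap1l (0.11) and Irf1 (0.11). Serping1 lay closest to Entpd1 (0.05), Epha7 (0.06) and Jcad (0.07). Nearest were Nfam1 (0.06) for C4b, Bgn (0.05) for Cfb and Hcar1 (0.11) for C5ar1. These 3 genes were not called, nor were Epha7 and Jcad.

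Markers of macrophages and monocytes moved in the same tumours as C1q. Of 11 measured markers, 6 rose, 0 fell and 5 did not pass, against 1.42% of all probes called higher by limma. Their mean level was 6.21 and 6.00 with vehicle and 7.58, 7.11 and 7.35 with RG7112, a shift of 1.24. The mean of the C1q chains was 7.72 and 7.16 against 9.02, 8.88 and 8.72, a shift of 1.43. Adgre1, an adhesion receptor that marks macrophages, rose by 1.58 ± 0.18 (limma adjusted p = 0.00127), and Csf1r, the receptor for macrophage growth factor, by 1.08 ± 0.17 (adjusted p = 0.00722). Mrc1, a mannose receptor of tissue macrophages, differed by 0.29 ± 0.22 (limma adjusted p = 0.809) and Mertk, a receptor for dying cells, by 0.57 ± 0.20 (adjusted p = 0.350). The part of macrophage number in the C1q, C3ar1 and integrin signals was not tested.

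Genes induced by interferon gamma rose in the same tumours as well. Of 9 measured, 7 rose, 0 fell and 2 did not pass, against 1.42% of all probes called higher by limma. Their mean level was 8.00 and 7.54 with vehicle and 9.28, 9.03 and 9.19 with RG7112. Their part in the C2, C4b, Cfb or Serping1 values was not tested. Among endothelial markers 1 of 7 was called and 4 were higher at an unadjusted p under 0.05, with list means of 5.90 to 6.10 against 6.50 to 6.56. For all probes these shares were 1.42% called higher and 4.83% higher at an unadjusted limma p under 0.05. The called gene was Kdr, a receptor for vascular endothelial growth factor, which rose by 1.01 ± 0.19 (limma adjusted p = 0.0203). Endothelial cells also carry Cd93, and their part in its value was not tested. Among T cell markers 0 of 7 were called (3 higher at an unadjusted p under 0.05), with list means of 4.77 to 4.85 against 5.22 to 5.34. Of these 7 genes, 6 had a mean signal under the median of all probes. Fibroblast markers overlapped between groups, with list means of 7.52 to 7.64 against 7.34 to 7.96 and 0 of 6 called (0 at an unadjusted p under 0.05).

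Neutrophils also carry C5ar1 and Itgam. Their 7 measured markers had list means of 4.31 to 4.43 against 4.35 to 4.48, and 0 were called by limma (1 higher at an unadjusted p under 0.05). Among all probes, 4.83% were higher and 4.06% lower at that unadjusted p. The mean signal lay under the median of all probes in 7 of 7 neutrophil and 5 of 7 dendritic cell markers. It did so too in 7 of 7 hepatocyte, 5 of 5 B cell and 6 of 6 keratinocyte markers. A lack of calls among such dim genes does not show that these cells were unchanged. Of 7 dendritic cell markers 0 were called (1 higher at an unadjusted p under 0.05), with list means of 4.73 to 4.79 against 4.66 to 4.88. Hepatocyte markers were dim, with list means of 4.62 to 4.86 against 4.62 to 4.76 and 0 of 7 called (0 at an unadjusted p under 0.05). Of 5 B cell and 6 keratinocyte markers 0 were called (0 and 1, lower, at an unadjusted p under 0.05), with list means of 4.19 to 4.25 against 3.77 to 4.36 and of 4.42 to 4.42 against 4.15 to 4.27. Among 9 targets of p53, the protein that RG7112 stabilises, 0 were called (1 lower at an unadjusted p under 0.05), and the list means were 7.77 to 7.84 with vehicle and 7.52 to 8.03 with RG7112.

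**Figure D4:**
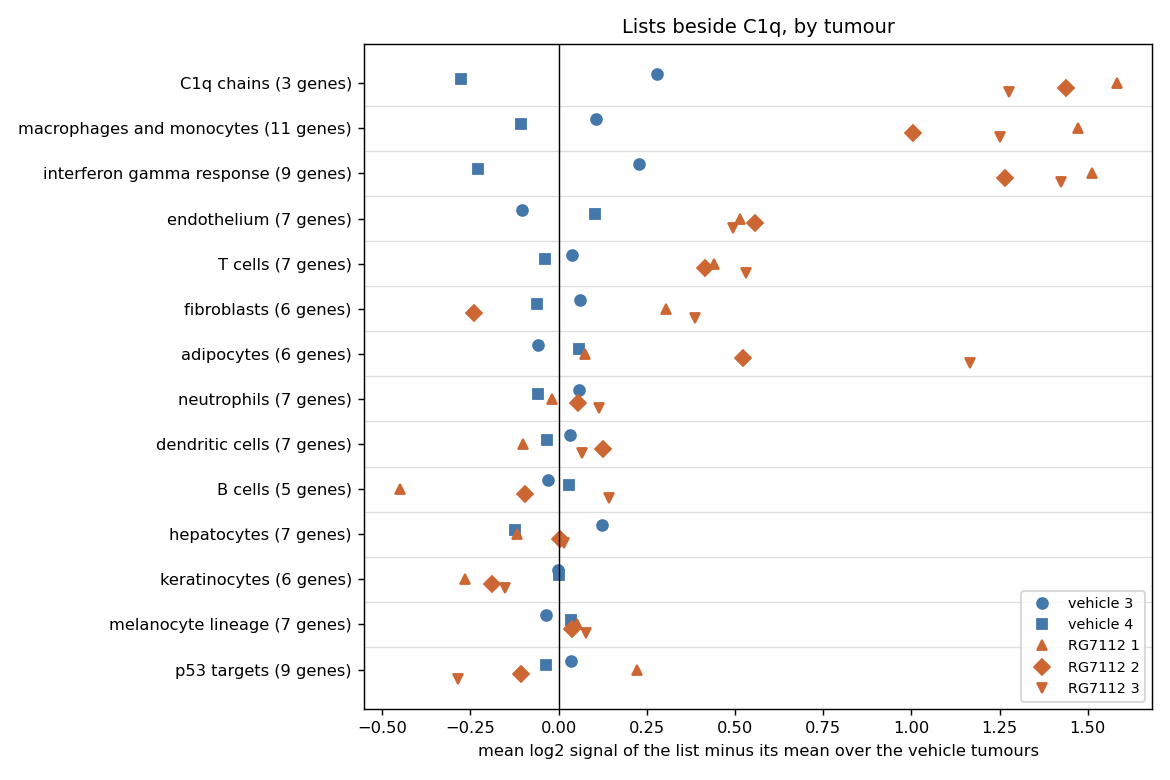
Mean log2 signal of each gene list in each tumour, relative to the mean of the vehicle tumours (horizontal axis); each symbol is 1 tumour and the number of measured genes stands beside each list. The C1q chains, macrophage and interferon gamma lists lie at least 1 unit above 0 in all 3 RG7112 tumours, and the neutrophil, dendritic cell and hepatocyte lists overlap between the groups.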

How the data were processed

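Per the submitters' processing notes, the deposited log2 signals came from oligo and RMA (tool versions: not given in the sources used here). Its table held 22203 probes on 5 arrays. The platform annotation named 1 gene for 19572 probes, several for 0 and none for 2631, and each of these 19572 matched the RefSeq genes of GRCm38.p6 by Entrez number. Raw scanner files and scan dates were not used here, so array batches were not examined. RNA had a quality number above 9.

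The difference RG7112 minus vehicle was estimated over all probes by limma 3.58.1 under R 4.3.3, using lmFit and eBayes at their defaults, Benjamini-Hochberg adjustment and a call at adjusted p under 0.05. There were 3 residual and 7.92 prior degrees of freedom. Replicates are separate mice. The number of arrays limits precision. Tested on 10 simulated sets of 22203 probes for this comparison, 1.2% of simulated log2 changes of 0.5 were recovered, 64.4% at a change of 1, and 97.2% at 1.5, while 5.46% of calls were false. The simulated noise was independent between probes, and shared shifts of probes within a tumour were not simulated. These rates may therefore not hold for the measured tumours. Member pairs were compared with scipy 1.17.1. C3 was among the pairs planned but has no named probe here.

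The members and lists were chosen with earlier results of these data known. Named genes are the 8 measured members, every other complement gene called, up to 2 uncalled genes with the smallest p per role, and the 3 genes nearest to a member in course, predicted genes left out (for C4b, Cfb and C5ar1 only the nearest is printed). Defining markers are named where a list is described. Neighbours of members, C1s2, C1rl, Kdr and the adipocyte genes fall outside this rule and were added after their values were seen.

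Alternatives were an intensity trend or robust eBayes, array weights, quantile or cyclic loess normalization, leaving out probes below the 40th percentile of the mean, 1 probe per named gene, adjusted p under 0.10, at least 1.5-fold, and leaving out each tumour.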

Additional observations from a re-analysis of the deposited data

How the results depend on the processing

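Leaving out 1 tumour at a time gave 65 to 268 probes called higher, 0 to 5 called lower, 0 to 4 of the 8 measured members called, 1 to 9 complement genes called higher, and a median difference of the members from 0.82 to 1.20. The lowest counts came without vehicle replicate 4, where the lone vehicle tumour is assumed to vary like the others. The 7 probes called lower became 16 with array weights, 4 with cyclic loess normalization, 2 without dim probes and 29 at adjusted p under 0.10. With all 5 tumours, 4 or 5 members and 10 to 15 complement genes were called higher under every alternative, and 0 complement genes were called lower under any. Over 28 named complement genes and 386 gene values under alternatives, 353 kept their call, 19 lost it, all on leaving out a tumour, and 14 gained one (C1s1, Serping1, Cd55, C1rb and Cfp). No call changed direction. No paired analysis was possible because the groups share only 1 replicate number. The labels number the vehicle tumours 3 and 4, and no vehicle tumour numbered 1 or 2 is among the 5 arrays. Leaving a tumour out also removes 1 of 3 residual degrees of freedom.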
